A study of Rattus norvegicus with 44 samples.

Results

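RNA of the dentate gyrus (DG), the input region of the hippocampus, was sequenced from older male F344 rats that had received the senolytic drug ABT-263 (AA, n = 11) or its vehicle (AV, n = 12). These 23 of the 44 rats of the series were taken by the group named for each rat in the authors' table of sample attributes, because the sample labels give only the age. The AA rats received 12 mg/kg ABT-263 by oral gavage on 5 consecutive days per cycle, with 2 weeks between cycles, for 8 cycles before the behavioral tests and for a final round after them. The AV rats received the carrier (Phosal 50 PG, polyethylene glycol and ethanol) on the same schedule. Treatment started at 12 months of age, and tissue was collected at 18 months, 2 weeks after the last treatment. Older rats given dasatinib (1.2 mg/kg) plus quercetin (12 mg/kg) (ADQ, n = 11) and young vehicle rats of 6 months (YNG, n = 10) shared the fit and are cited beside the AA and AV values of a few genes. Each library came from 1 rat and from dissected tissue, so fewer cells of a type and less RNA per cell cannot be told apart in any value below.

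ABT-263, also called navitoclax, binds the survival proteins BCL-2, BCL-XL and BCL-w and thereby frees the death-promoting members of the same family. Senescent cells are known to lean on these survival proteins, stay arrested through cell cycle inhibitors such as p21 (Cdkn1a), and secrete cytokines, proteases and growth factors. In the aged brain, microglia, astrocytes and endothelial cells carry much of the inflammatory transcription, which includes complement, antigen presentation, interferon-induced and phagocyte oxidase genes.

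Values are the authors' normalized read values, summed over the rows of a gene. Genes with a mean of at least 5 over the 44 rats were tested (15598 genes) on the log2(value + 1) scale with limma, two-sided. A gene with an unadjusted p under 0.05 was called a differentially expressed gene (DEG), and the Benjamini-Hochberg adjusted p over all genes tested stands beside it. All differences below are AA minus AV in log2 with their standard error (SE), unless another pair is named. Estimated depth was 12119696 to 22312933 reads in AV and 11392933 to 21197455 in AA.

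Some libraries stood apart. AV rats 3989, 3999, 4009 and 4568 carried transcripts of cytotoxic lymphocytes at 198.9 to 460.7 for Prf1, the pore-forming protein perforin, against at most 13.9 in the other AV rats. Rat 3989 also had the highest sums of the endothelial, meningeal, microglial, astrocyte and red blood cell markers among the AV rats. AA rat 3988 held genes known from cerebellar granule cells: Fat2 at 6184, Gabra6 at 2538 and Cbln3 at 2164, against at most 10.95, 4.20 and 7.26 in the other AA rats. AA rat 4107 had the lowest sum of the 13 tested dentate granule cell markers, 7344 against an AA median of 21480, and the highest sum of CA1 pyramidal cell markers, 48950 against 12450. Among AV rats the lowest granule cell sum, 11940, and the highest CA1 sum, 31910, were those of rat 3989. The other rats had granule cell sums of 14310 to 25010 in AV and 11870 to 27290 in AA. The 11870 was that of AA rat 3996, whose CA1 sum was 21500. Without the 4 AV rats, 14 of the 47 named genes that were lower in AA kept an unadjusted p under 0.05 by limma, and values without them stand beside the main examples.

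**Figure D1:**
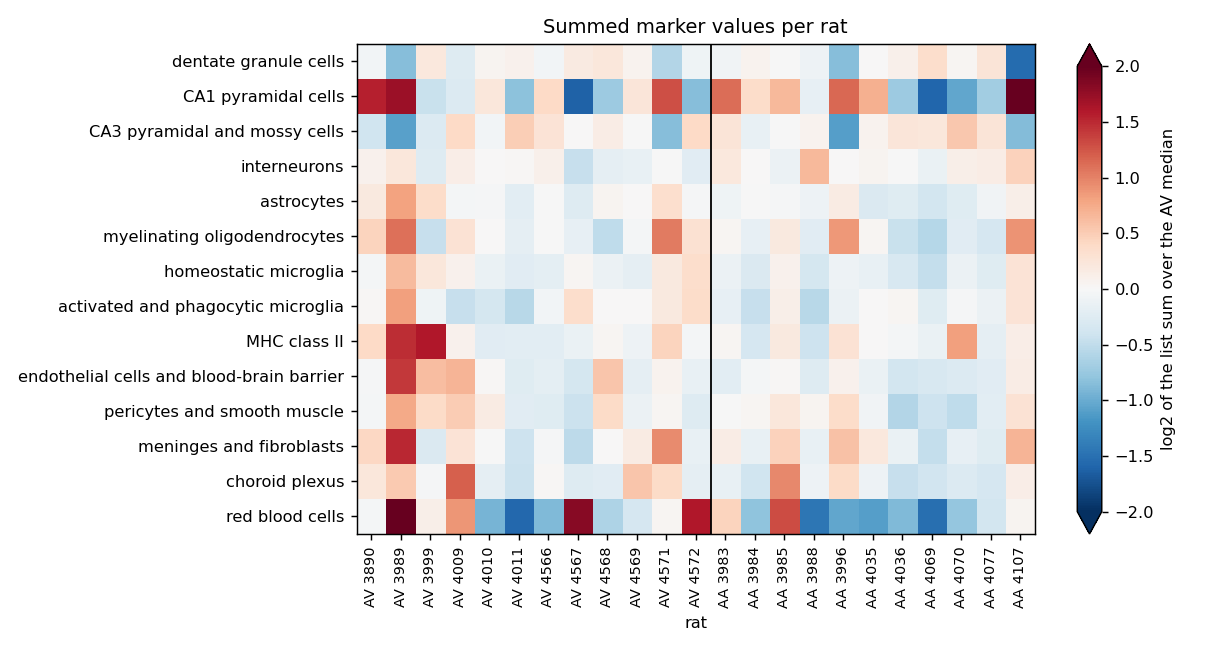
Sums of the normalized values of marker lists (rows) in each AV and AA rat (columns), as log2 of the sum over the AV median, where values beyond 2 in either direction take the end color. Rat AV 3989 is high in most glial, vascular and blood lists, and rat AA 4107 is high for CA1 markers and low for granule cell markers.

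Between AA and AV, 703 genes were DEGs (4.51% of the genes tested), with 219 higher (1.40%) and 484 lower (3.10%) in AA. No gene passed after adjustment, and the smallest adjusted p by limma was 0.526. The lower genes also made up most of the small p-values: 126 of 143 genes with a p under 0.01 and 18 of 19 with a p under 0.001 were lower in AA. Differences were mostly modest, since 458 of the DEGs differed by less than 0.5 on the log2 scale and 49 by at least 1. The 95% interval of a gene reached a median of 0.27 to either side of its difference. When every rat was rescaled to the same total in place of the median ratio, the split became 348 higher and 314 lower. That scaling moved the median difference of all genes from 0.00093 to 0.0467.

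The number of DEGs depended on single rats and on the 4 AV rats with high Prf1. Leaving out 1 rat at a time gave 458 DEGs without AV rat 3989 and 1055 without AA rat 3985. Without AV rats 3989, 3999, 4009 and 4568 together there were 378 DEGs (2.42%), with 195 higher (1.25%) and 183 lower (1.17%). Genes lower in AA were therefore no longer in the majority. Without AA rat 3988 there were 566 DEGs (3.63%), with 149 higher (0.955%) and 417 lower (2.67%).

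**Figure D2:**
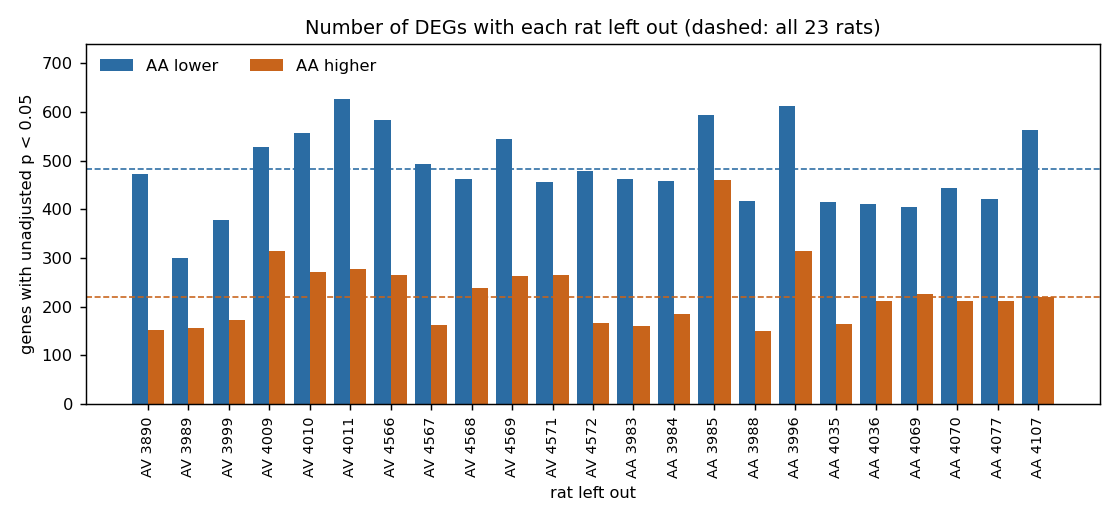
Number of genes with an unadjusted p under 0.05 (vertical axis) after leaving out the AV or AA rat named on the horizontal axis, in blue for AA lower and in orange for AA higher, with dashed lines at the counts for all 23 rats (484 and 219). Leaving out AV rat 3989 gives the fewest lower genes, 301, and leaving out AA rat 3985 the most higher genes, 460.

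**Figure D3:**
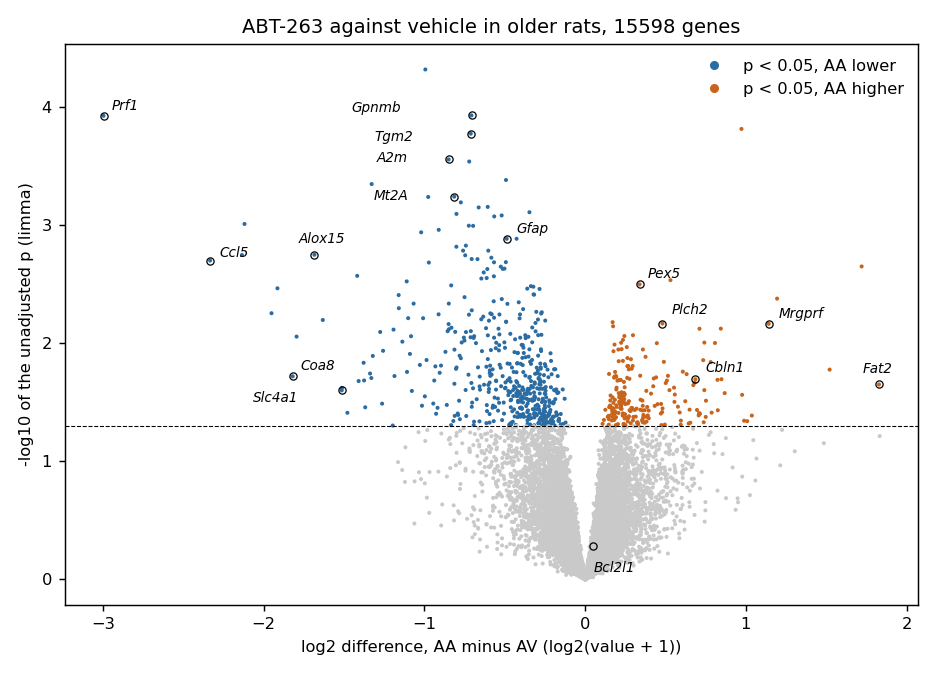
Log2 difference, AA minus AV (horizontal axis), against -log10 of the unadjusted limma p (vertical axis) for each of the 15598 genes, with the dashed line at p = 0.05 and circles around genes named in the text. Large differences lie mostly on the left, as for Prf1 (-3.00), and the genes of the drug's targets such as Bcl2l1 (0.05) lie near 0.

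The genes of the 3 proteins that ABT-263 binds were measured first. Bcl2l1, which encodes BCL-XL, had a lowest, median and highest value of 989.7, 1121 and 1378 in AV and 934.9, 1193 and 1552 in AA. Bcl2l2, which encodes BCL-w, lay at 1967, 2183 and 2448 in AV and at 2063, 2205 and 2499 in AA. Bcl2 was low in both groups, with medians of 27.64 and 23.48. The groups overlapped almost completely for all 3 genes. The differences were 0.05 (95% interval -0.11 to 0.21) for Bcl2l1, 0.01 (-0.08 to 0.10) for Bcl2l2 and -0.12 (-0.50 to 0.26) for Bcl2. None of the 5 survival members tested and none of the 10 death members tested was a DEG, against 4.51% of all genes tested. The medians of these lists were 0.01 and 0.02. Among death members, Bax and Bak1, which open the outer mitochondrial membrane, differed by 0.06 ± 0.12 (SE) and 0.03 ± 0.11. The smallest p belonged to Pmaip1, which encodes the BH3-only protein NOXA (-0.45, p = 0.0671). Against ADQ, Bcl2l1 was higher in AA (0.18, p = 0.029), where 4.53% of all genes differed at that threshold.

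Genes of cell cycle arrest and of secreted factors followed. Cdkn1a had a lowest, median and highest value of 47.08, 78.7 and 207.4 in AV and of 32.58, 60.78 and 120.9 in AA. It was lower in AA by 0.55 ± 0.24 on the log2 scale (p = 0.0247, adjusted p = 0.999), and 5 AV rats exceeded every AA rat. The difference was -0.27 without the 4 AV rats (p = 0.27). Cdkn1a was the only DEG among 29 tested p53 targets and arrest genes, whose median was 0.01, where 4.51% of all genes tested were DEGs. Cdkn2a, Il6, Mmp3 and Tnfsf11 of the fixed panel were not among the genes tested. The 31 tested secreted factors of senescent cells had a median of -0.24. Of these, 4 were lower in AA and none higher, against 3.10% and 1.40% of all genes tested. These were the chemokine Ccl5, the plasminogen activator Plat (-0.50, p = 0.011), the TNF receptor Tnfrsf1a (-0.25, p = 0.0157) and the matrix protease Mmp2 (-0.35, p = 0.0305). Without the 4 AV rats none of the 31 was lower, 1 was higher and the median was 0.00452.

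Among caspases and death receptors, 2 of 23 were lower, where 3.10% of all genes tested were. Tnfrsf1a, given above, was 1 of them and had a p of 0.24 without the 4 AV rats. Ripk3, the kinase of necroptosis, had medians of 15.47 in AV and 7.31 in AA, and 7 AV rats lay above the highest AA value of 15.34. Its difference was -0.77 ± 0.29 (p = 0.00988), and -0.59 without the 4 AV rats (p = 0.073).

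Apart from 1 transcript named only by its clone, the smallest p belonged to Gpnmb, a glycoprotein of lysosome-loaded phagocytes. Gpnmb ranged from 124.5 over a median of 251.2 to 522.6 in AV and from 106.9 over 127.9 to 237.9 in AA, and 7 AV rats exceeded every AA rat. The difference was -0.71 ± 0.17 (p = 0.000118, adjusted p = 0.526). It was -0.49 without the 4 AV rats (p = 0.0059), and lay at -0.61 and -0.78 within rat numbers up to 4011 and above 4011. A2m, which encodes the protease inhibitor alpha-2-macroglobulin, ranged from 144.3 over 332.8 to 636.9 in AV and from 95.48 over 187.6 to 299.0 in AA. Its difference was -0.85 ± 0.22 (p = 0.000279), and -0.56 without the 4 AV rats (p = 0.018). Both genes thus kept the direction and an unadjusted p under 0.05 when the 4 rats were left out.

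Of the 10 lower genes with the smallest p, 8 kept a p under 0.05 without these 4 AV rats and all 10 had a smaller difference. Tgm2, a transglutaminase that cross-links proteins, went from -0.71 to -0.29. Its values were 233.5, 372.3 and 949.4 in AV and 191.0, 251.1 and 287.8 in AA, and the 4 highest AV values were those of the 4 rats. Upp1, which cleaves uridine, went from -0.72 to -0.48. Mall, a membrane-raft protein, had 7 AV rats above the highest AA rat and went from -0.77 to -0.52. Parp3, an ADP-ribosyltransferase of DNA repair, went from -0.61 to -0.48, and Hcls1, an actin-binding protein of blood cells, from -0.66 to -0.42. Itgb2, the integrin beta chain of leukocytes and microglia, was -0.49 ± 0.13 with all rats and -0.20 without the 4 (p = 0.053). Prf1 and Mt2A are given below with their groups.

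**Figure D4:**
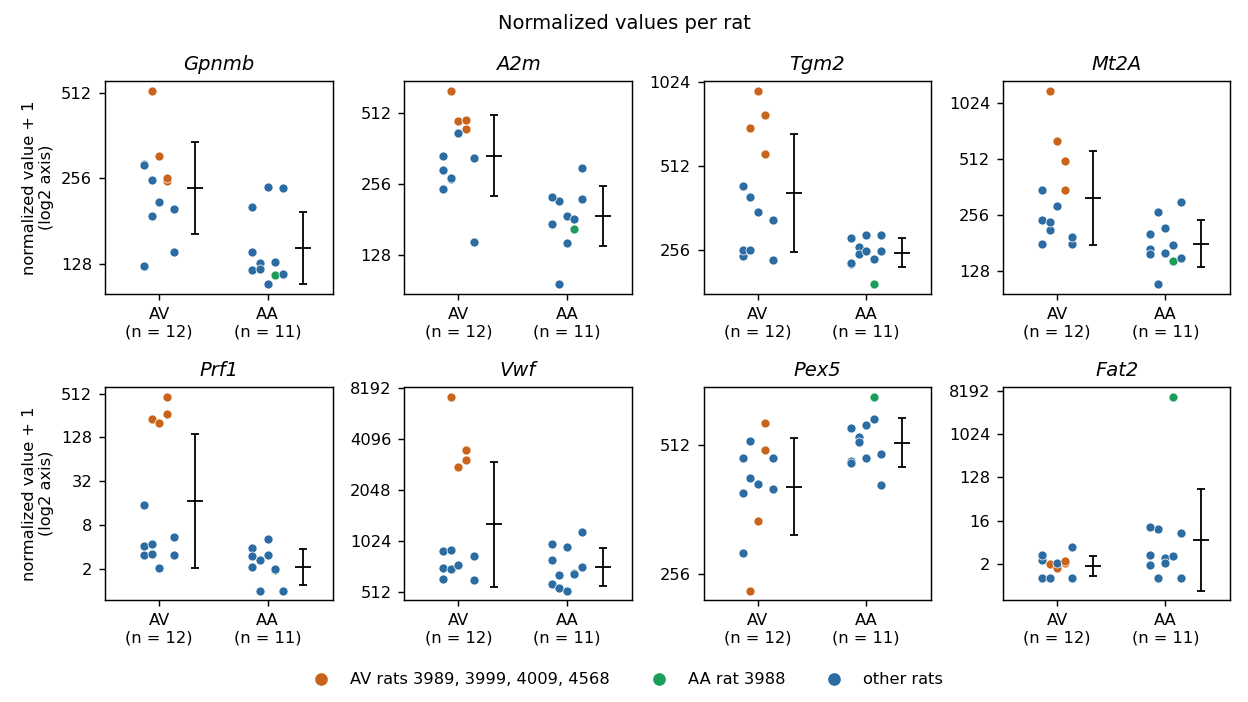
Normalized value + 1 per rat on a log2 axis for 8 genes in AV and AA, with the mean and SD of the log2 values at the right of each group. The 4 AV rats in orange are the highest for Prf1, Tgm2 and Vwf, and AA rat 3988, in green, sets the Fat2 values. For Gpnmb and A2m most of the other AV rats lie above the AA median, some of them above the highest AA value.

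Some lymphocyte transcripts gave the largest falls, with their highest values in the 4 AV rats named above. Prf1 had a median of 3.97 and a highest value of 460.7 in AV, against 1.10 and 4.16 in AA. The difference was -3.00 ± 0.71 (p = 0.000119, adjusted p = 0.526), and -0.98 without the 4 rats (p = 0.029). Ccl5, which recruits T cells, reached 528.9 in AV and 4.16 in AA (-2.33, p = 0.002). Without the 4 rats its difference was -0.34 (p = 0.43). Since AA values this low are a few reads, these log2 differences depend on the pseudocount, with -3.35 and -2.11 for Prf1 at pseudocounts of 0.5 and 5. Cd8a, the co-receptor of cytotoxic T cells, was 49.05, 6.52, 88.51 and 116.8 in rats 3989, 3999, 4009 and 4568, at most 3.40 in the other AV rats and at most 1.004 in AA. Gzmk and Nkg7, granule proteins chosen after their values were seen, were likewise highest in these 4 AV rats, which reached 210.1 and 214.3. The T cell gene Cd3e did not follow them, with 159.4, 26.73, 1.066 and 3.851 in rats 3989, 3999, 4009 and 4568. It was highest in AV rat 3890, at 233.1, and differed by 0.35 (p = 0.69). Cd4 was highest in AV rat 4572, at 296.0. Of the 33 genes in the list of cytotoxic lymphocytes and T cells, 14 were tested, with a median of -0.44. Of these 14, 7 were lower in AA and none higher, against 3.10% and 1.40% of all genes tested. Prf1, Ccl5, Cd8a, Gzmk and Nkg7 passed the filter only through the high AV rats, with AA means of 1.42, 2.54, 0.25, 0.19 and 0.98. They were among the 7, so that share was partly set by the filter and is not comparable with that of all genes. Without the 4 rats 1 of the 14 was lower, where 1.17% of all genes were, and the median was -0.07. Thy1, which neurons also express, makes up most of that list's sum. Without it the sum ran from 410.3 to 2098 in AV, 350.0 to 688.0 in AA, 365.3 to 630.7 in ADQ and 400.4 to 842.1 in YNG.

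Some microglial genes were lower in AA. Of 36 tested genes of activated and phagocytic microglia, 12 were lower and none higher (median -0.28). Of 21 homeostatic microglia genes 6 were lower and none higher (median -0.24). Among all genes tested 3.10% were lower and 1.40% higher. Lgals3, the galectin of lysosomal damage, had medians of 13.87 and 10.76 and differed by -1.11 ± 0.35 (p = 0.003). It differed by -0.74 without the 4 AV rats (p = 0.061), and the median of the other 8 AV rats was 11.12. Cx3cr1, the fractalkine receptor, ranged over 451.6, 584.0 and 771.2 in AV and over 326.1, 460.8 and 688.0 in AA. Its difference of -0.26 was -0.27 without the 4 AV rats (p = 0.031), so it was as large without them. Csf1r, the receptor on which microglia depend, differed by -0.28 (p = 0.0225), and P2ry13, a purine receptor, by -0.48 (p = 0.0149). Neither kept a p under 0.05 without the 4 AV rats (p = 0.088 and 0.059), nor did P2ry13 without AA rat 3988 (p = 0.051). Without the 4 AV rats 4 of the 36 and 1 of the 21 were lower at an unadjusted p of 0.05, against 1.17% of all genes. The summed level of the 21 homeostatic genes ran from 6535 to 11800 in AV and from 5494 to 9191 in AA.

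Complement and antigen presentation showed the same direction. C4b, a complement component of reactive glia, was at 75.24, 95.47 and 309.4 in AV and at 44.03, 69.37 and 102.0 in AA, and every AV rat lay above the AA median. The difference was -0.80 ± 0.22 (p = 0.000806), and -0.31 without the 4 AV rats (p = 0.099). C4a, whose sequence is nearly the same so that reads may be split between the genes, differed by -0.46 (p = 0.0833). C3 differed by -0.33 (p = 0.0696). Serping1, the inhibitor of C1, differed by -0.85 (p = 0.00463) and by -0.29 without the 4 AV rats (p = 0.24). Itgam, the alpha chain of complement receptor CR3, was also lower. In all, 4 of 23 tested complement genes were lower and none higher, against 3.10% and 1.40% of all genes tested. The list median went from -0.173 to -0.0568 without the 4 AV rats, and no member was then a DEG. Leaving out rat 3989 alone left 2 of them lower.

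The 27 tested genes of MHC class I and antigen processing had a median of -0.22. Of these, 9 were lower in AA and none higher, against 3.10% and 1.40% of all genes tested. The subunits of the immunoproteasome, which cuts peptides for presentation, were among them. Psmb9 ranged over 34.97, 68.26 and 148.7 in AV and over 28.02, 46.24 and 65.68 in AA (-0.57 ± 0.19, p = 0.00443). Psmb8 differed by -0.48 (p = 0.0276) and the class I chain RT1-CE5 by -0.36 (p = 0.027). RT1 chains resemble each other, so reads may be shared between them. Without AV rat 3999 1 of the 27 was lower, and without the 4 AV rats none. MHC class II, which presents to helper T cells, had a median of -0.57 over 11 genes, all of them negative, with RT1-Da as the only DEG. RT1-Da reached 893.1 in AV rat 3999 and 382.5 in AA rat 4070, with medians of 43.64 and 26.98. The median of this list was -0.02 without the 4 AV rats and 0.05 within rat numbers above 4011.

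Interferon-induced genes were the longest group of lower genes, with 16 of 58 lower and none higher (median -0.27, 53 of 58 negative). Among all genes tested 3.10% were lower and 1.40% higher. Gbp5, a GTPase that attacks pathogen vacuoles, ranged over 17.48, 33.53 and 157.8 in AV and over 18.27, 25.1 and 44.06 in AA (-0.75 ± 0.23, p = 0.00181). Isg15, a ubiquitin-like modifier, ranged over 24.51, 51.75 and 92.59 in AV and over 10.66, 27.11 and 77.64 in AA (-0.71 ± 0.21, p = 0.00194). Oasl2 belongs to the family of oligoadenylate synthetase genes (-0.50, p = 0.00234). The groups overlapped for all 3 genes, and 11, 11 and 10 of the 12 AV rats lay above the AA median. Without the 4 AV rats, 2 of the 58 were lower and 1 higher, against 1.17% and 1.25% of all genes, and the median was -0.06. Gbp5 (-0.41, p = 0.044) and Isg15 (-0.54, p = 0.024) were then still lower in AA.

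Promoters of some of these genes held a known element. The interferon-stimulated response element was searched as 2 copies of GAAA separated by any 2 bases, on both strands, in the 250 bases before the start site (RefSeq, GRCr8). Of the 25 lower genes of the interferon and MHC class I lists, 21 had a promoter entry. Of these genes, 10 held the element in any entry, while 3.41% of all 33469 promoter entries held it. Interferon-induced genes are known for this element, so a larger share followed from the choice of the lists. List members that were not lower were not counted. Both sequences below are shown because the element lies in genes named above, at -56 in Gbp5 and at -151 in Oasl2 counted from the start site, with the match in capitals. A match is a description of the letters only.
Gbp5, chr2:233910749-233910998, plus strand: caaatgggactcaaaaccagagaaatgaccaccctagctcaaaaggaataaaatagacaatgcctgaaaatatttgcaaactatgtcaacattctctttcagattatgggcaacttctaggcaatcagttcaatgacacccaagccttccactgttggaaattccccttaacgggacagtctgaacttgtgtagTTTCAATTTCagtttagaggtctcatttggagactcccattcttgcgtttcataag
Oasl2, chr12:47383186-47383435, minus strand: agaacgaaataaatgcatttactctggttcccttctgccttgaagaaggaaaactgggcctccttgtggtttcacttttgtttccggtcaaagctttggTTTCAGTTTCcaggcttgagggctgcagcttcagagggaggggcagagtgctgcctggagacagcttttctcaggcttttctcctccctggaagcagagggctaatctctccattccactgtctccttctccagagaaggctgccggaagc

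Genes that make superoxide and nitric oxide or act on them were lower in 8 of 27 cases and higher in 1. Among all genes tested 3.10% were lower and 1.40% higher. Rac2, a GTPase of the phagocyte oxidase, differed by -0.69 (p = 0.00904), and its 4 highest AV values, 142.1 to 222.9, were those of the 4 AV rats. Without these rats its difference was -0.10, and none of the 27 genes was called. The 1 higher gene was Nos1, the neuronal nitric oxide synthase (0.35, p = 0.0452). The 42 tested antioxidant genes had a median of -0.04. Of these, 3 were lower and none higher, against 3.10% and 1.40% of all genes.

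The metallothionein genes Mt2A and Mt1 were among these 3. Mt3, a metallothionein gene with higher values, had medians of 4466 in AV and 3417 in AA and was no DEG (-0.31, p = 0.30). Mt2A, a cysteine-rich protein that binds zinc and copper, ranged over 176.6, 261.3 and 1185 in AV and over 107.4, 166.6 and 299.4 in AA, and all 12 AV rats lay above the AA median. The difference was -0.81 ± 0.22 (p = 0.000576), and -0.35 without the 4 AV rats (p = 0.0502). Mt1 ranged over 61.24, 127.6 and 418.5 in AV and over 50.26, 102.7 and 149.7 in AA (-0.76 ± 0.23, p = 0.00165), and its difference was -0.25 without the 4 rats (p = 0.2). YNG values were not lower than those of AA, with medians of 267.0 for Mt2A and 167.7 for Mt1. Mt2A and Mt1 are also known glucocorticoid targets, and with Sult1a1, Cdkn1a and Zbtb16 they made 5 lower genes of 21 in that list. Among all genes tested 3.10% were lower, and the list median was -0.03. The circadian gene Per1 was the 1 higher gene there.

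The promoters of Mt1 and Mt2A are shown because both genes moved in the same direction and carry repeated copies of the metal response element core. This core was searched as TGCNCNC on both strands, and matches are in capitals. Mt1 held 7 matches and Mt2A held 5 in 250 bases. At least 1 match was found in 43.4% of all promoters and 5 or more in 0.37%.
Mt1, chr19:10832976-10833225, minus strand: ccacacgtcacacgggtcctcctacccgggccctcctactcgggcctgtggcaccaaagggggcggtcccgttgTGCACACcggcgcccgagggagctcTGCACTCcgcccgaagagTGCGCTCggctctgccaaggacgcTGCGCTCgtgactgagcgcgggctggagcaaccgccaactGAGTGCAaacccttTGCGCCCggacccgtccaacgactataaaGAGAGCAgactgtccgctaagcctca
Mt2A, chr19:10838709-10838958, minus strand: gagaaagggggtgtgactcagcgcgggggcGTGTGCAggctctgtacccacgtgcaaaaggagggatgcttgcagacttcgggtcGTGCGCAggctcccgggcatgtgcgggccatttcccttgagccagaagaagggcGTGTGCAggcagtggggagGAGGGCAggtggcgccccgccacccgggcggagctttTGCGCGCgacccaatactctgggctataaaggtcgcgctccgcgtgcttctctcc

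Of 18 tested astrocyte genes, 3 were lower in AA and none higher, against 3.10% and 1.40% of all genes tested. Gfap, the intermediate filament that rises in reactive astrocytes, ranged over 17750, 29200 and 51350 in AV and over 16820, 20130 and 33500 in AA, and 4 AV rats exceeded every AA rat. The difference was -0.49 ± 0.14 (p = 0.00131, adjusted p = 0.816). It was -0.32 without the 4 AV rats (p = 0.028). Within rat numbers up to 4011 it was -0.34 (p = 0.25), and above 4011 it was -0.61. Vim, a second filament, differed by -0.67 (p = 0.00195), and by -0.20 without the 4 rats (p = 0.24). Sox9, the astrocyte transcription factor, differed by -0.40 (p = 0.009), and by -0.32 without the 4 rats (p = 0.06). The list median was -0.115.

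Endothelial and blood-brain barrier genes were lower in 9 of 27 cases and higher in none, with a median of -0.32. Among all genes tested 3.10% were lower and 1.40% higher. Vwf, the clotting factor made by endothelium, was 7244, 2789, 3519 and 3069 in AV rats 3989, 3999, 4009 and 4568, and between 596.5 and 902.7 in the other AV rats. In AA it ran from 517.8 to 1145, so that the other AV rats lay inside the AA range. The difference was -0.83 ± 0.30 (p = 0.00741), and -0.04 without the 4 rats (p = 0.84). Nos3, the endothelial nitric oxide synthase, went from -0.54 (p = 0.0115) to -0.16, and Cav1, the coat protein of caveolae, from -0.42 (p = 0.0216) to -0.06. The tight junction gene Cldn5 had medians of 1428 and 983.5 and differed by -0.39 (p = 0.0572). Without the 4 AV rats none of the 27 genes was lower and the median was 0.0114. Angpt2 and Adm, vascular genes chosen after their values were seen, had their 4 highest AV values in the same 4 rats, up to 1634 and 383.0, against at most 39.41 and 25.18 in AA.

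TGF-beta signaling was read through its ligands, receptors and targets. Tgfb1, the ligand, ranged over 178.2, 279.2 and 412.2 in AV and over 120.6, 179.2 and 304.9 in AA, with 11 AV rats above the AA median. It was lower in AA by 0.49 ± 0.17 on the log2 scale (p = 0.0066). Eng, the endothelial co-receptor, was the only other DEG among 50 tested genes (-0.36, p = 0.0254), and it had a p of 0.054 without AA rat 3988. These 2 of 50 lower genes are near the 3.10% of all genes tested that were lower. Acvrl1, the endothelial type I receptor, and Id1, a target of its signaling, differed by -0.38 (p = 0.0549) and -0.30 (p = 0.0778). Without the 4 AV rats the values were -0.28 for Tgfb1 (p = 0.13), -0.14 for Eng, 0.02 for Acvrl1 and -0.09 for Id1. Leaving out rat 4107 gave 8 lower genes in the list, and leaving out rat 3989 gave 1.

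Red blood cell genes were highest in AV rat 3989. Slc4a1, the anion exchanger of red cells, was 687.7 in AV rat 3989, with medians of 20.79 in AV and 7.69 in AA (-1.51, p = 0.0251). Its difference was -0.37 without the 4 AV rats (p = 0.54). Hba-a2, an alpha globin gene with a near-identical copy, had medians of 2886 and 1487 (-0.997, p = 0.0283). The 6 tested red blood cell genes had a median of -0.825, and without rat 3989 none of them was a DEG. Alox15, a lipoxygenase of reticulocytes and leukocytes, was 2663 in rat 3989 and at most 44.92 in AA (-1.68, p = 0.00179). Its difference was -0.46 without the 4 AV rats (p = 0.13). The part of blood in these differences was not tested. Coa8, an assembly factor of cytochrome oxidase and another of the 5 largest falls (-1.82, p = 0.0191), did not follow these rats. Its values ran from 4.53 to 97.45 in AV and from below 1 to 105.1 in AA, and its symbol names 2 identifiers, so it is uncertain.

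**Figure D5:**
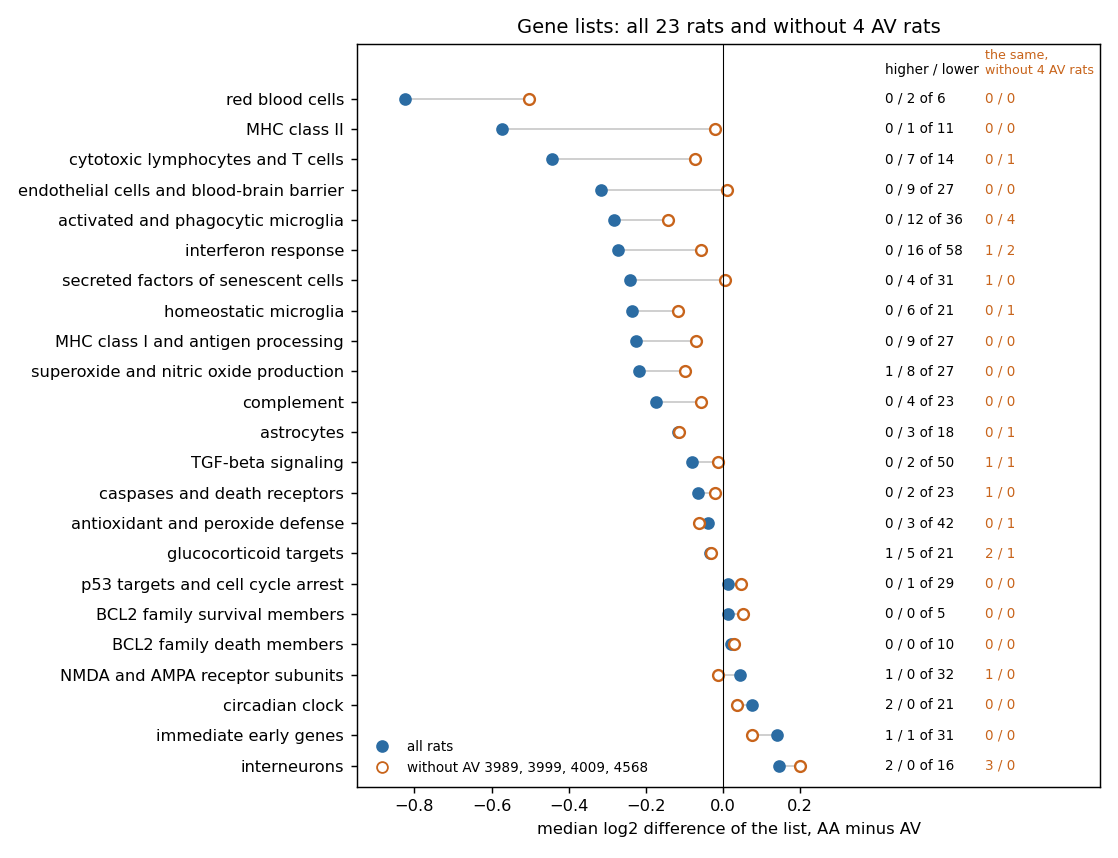
Median log2 difference, AA minus AV (horizontal axis), of the tested genes of each list, in blue for all 23 rats and as open orange circles without AV rats 3989, 3999, 4009 and 4568, with the number of members higher and lower in AA at the right. The plotted lists of lymphocyte, microglial, MHC, interferon, complement and endothelial genes lie left of 0 with all rats and nearer to 0 without the 4 rats, as for endothelial genes (-0.32 and 0.0114).

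Most of the higher genes with the smallest p had small differences. Pex5, the receptor that imports proteins into peroxisomes, ranged over 233.3, 421.4 and 575.4 in AV and over 410.7, 518.1 and 660.4 in AA (0.34 ± 0.11, p = 0.00318, adjusted p = 0.936). Mul1, a ubiquitin ligase of the mitochondrial outer membrane, ranged over 522.2, 624.2 and 684.2 in AV and over 647.6, 667.7 and 772.1 in AA (0.17 ± 0.06, p = 0.0072). For Mcrs1, a nucleolar and spindle protein, every AV rat lay below the AA median (0.17 ± 0.06, p = 0.00665). Denr, which restarts translation at downstream codons, Sptbn4, a spectrin of the axon initial segment, Tsen54, a subunit of the tRNA splicing endonuclease, and Exog, a mitochondrial nuclease, differed by 0.30, 0.24, 0.24 and 0.22. Of the 10 higher genes with the smallest p, 9 kept a p under 0.05 without the 4 AV rats, with Exog as the exception (p = 0.062). All 10 kept it without AA rat 3988.

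The largest rises were of another kind and rested partly on AA rat 3988. Fat2, a giant cadherin of cerebellar granule cells, was 6184 in this rat, at most 10.95 in the other AA rats and at most 3.40 in AV (1.83 ± 0.77, p = 0.0224). Without rat 3988 the difference was 0.83 (p = 0.069). Cbln1, a synapse organizer of granule cells, was 3797 there against 83.95 to 314.7 in AV, and went from 0.69 to 0.32 (p = 0.057). Mrgprf, an orphan receptor, was 545.5 in rat 3988 and went from 1.14 to 0.65 (p = 0.016). Grid2ip, a scaffold of the delta glutamate receptor, went from 0.71 to 0.43 (p = 0.024). Plch2, a phospholipase C, reached 1145 in AA and went from 0.48 to 0.37 (p = 0.025). The fifth of the largest rises, the chloride transporter gene Clcn5 (0.65, p = 0.0473), was not a DEG without AV rat 3989 (p = 0.15). A part of cerebellar tissue in the other AA libraries was not tested.

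Neuronal lists held few DEGs. Of 16 tested interneuron genes none was negative, and 2 were DEGs, where 4.51% of all genes tested were. These were Slc32a1, the vesicular GABA transporter (0.27, p = 0.0156), and Reln (0.36, p = 0.034). Reln was 6159 in rat 3988 and differed by 0.18 without it (p = 0.14). Slc32a1 was highest in AA rat 4107, at 2187. Its limma p was 0.053 without that rat and 0.055 without the 4 AV rats. The list median was 0.145. Sst, the neuropeptide somatostatin, had medians of 1176 and 1430 and differed by 0.24 (p = 0.0535). Of 32 NMDA and AMPA receptor genes and other glutamate receptor genes, only Grin2d was a DEG (0.29, p = 0.0364), with a list median of 0.04. Grin2d was also highest in AA rat 4107, at 270.4. Its limma p was 0.099 without that rat and 0.058 without the 4 AV rats. Leaving out single rats kept it under 0.05 in 13 of 23 cases. The immediate early gene Npas4, a transcription factor of active neurons, was higher (0.59, p = 0.0491) and Klf4 lower (-0.42, p = 0.0389) among 31 genes. Neither was a DEG without the 4 AV rats (p = 0.079 and 0.13), and leaving out single rats kept Npas4 under 0.05 in 12 of 23 cases. Klf4 had a p of 0.062 without AA rat 3988. Of 21 circadian genes, Per1 (0.22, p = 0.0342) and Cry1 (0.19, p = 0.0393) were higher and none lower, against 1.40% and 3.10% of all genes. Neither circadian gene passed the threshold without rat 3988 (p = 0.091 and 0.12). None of the 13 dentate granule cell genes, 26 postsynaptic scaffold genes, 38 chaperones, 24 cholesterol genes, 38 proteasome subunits, 71 cytosolic ribosomal protein genes, 72 nuclear and 13 mitochondrial respiratory genes was a DEG. Ribosomal protein genes had a median of -0.18 with 63 of 71 negative, which moved to 0.03 within rat numbers up to 4011 and to -0.41 above 4011.

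Over all 46 lists, which share genes and were written with earlier results of these data known, 92 of 1058 tested genes were lower (8.70%) and 10 higher (0.945%), against 3.10% and 1.40% of all genes tested. In 16 of the lists no gene was a DEG. The lists not described above that had any held between 1 and 3 DEGs each, among them oligodendrocyte precursors with 2 lower of 10 and NF-kappaB signaling with 3 lower of 42.

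AA was also compared with ADQ, the other senolytic treatment, where 4.53% of all genes had an unadjusted p under 0.05 by limma and the smallest adjusted p was 0.981. Since this comparison and that with AV use the same AA rats, values are given side by side only. Gpnmb differed by -0.71 from AV and by -0.09 from ADQ (p = 0.6), with an ADQ median of 155.0. A2m differed by -0.85 from AV and by -0.18 from ADQ (p = 0.43), with an ADQ median of 219.7. Among the higher genes, Per1 differed by 0.22 from AV and by 0.30 from ADQ (p = 0.0062), and Pex5 by 0.34 and 0.18 (p = 0.11).

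Each rat is named by a number, and the labels name no batch. Numbers up to 4011 hold 6 AV and 5 AA rats with overlapping numbers, while above 4011 the 6 AV rats run from 4566 to 4572 and the 6 AA rats from 4035 to 4107, so number and treatment cannot be told apart there. The share of the normalized total taken by 1 transcript named only by its clone split with the number: it was 0.422% to 1.577% in AV and 0.977% to 1.596% in AA up to 4011, and 4.141% to 9.667% in AV and 2.826% to 4.772% in AA above 4011. Its part in the results was not tested. Within the lower numbers alone 329 genes were DEGs, and within the higher numbers 650. All 47 named lower genes and all 19 named higher genes had the same sign in both ranges. These genes were chosen for their p in the same rats, so their sign was largely set beforehand. Of all 703 DEGs, 698 kept their sign up to 4011 and 700 above 4011, which was largely set beforehand in the same way. Of these 703, 129 were DEGs within the lower numbers alone and 201 within the higher. A p under 0.05 by limma was reached by 14 and 2 of the named genes in the lower range and by 22 and 4 in the higher. In the test of the difference between ranges, 569 genes (3.65%) had a p under 0.05, none of the 66 named DEGs was among them, and the smallest adjusted p was 0.997.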

How the data were processed

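Poly(A) RNA of the DG was sequenced on the Ion platform, 1 library per rat. Per the labels, the authors aligned reads with STAR 2.5.3a in Partek to rn6. They deposited 1 table of signal values, which the methods describe as normalized by the median ratio. Of the low values per library, 79.2% to 83.6% were whole multiples of a step (tolerance 0.05), so counts were not recovered and no count model was used. Groups came from the deposited attributes table.

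The 24694 rows were summed to 18347 gene identifiers, and the 15598 with a mean of at least 5 were tested as log2(value + 1) in 1 fit of 44 rats and 4 groups (limma 3.58.1, trended empirical Bayes, R 4.3.3). Fold changes of low genes are understated on this scale. For lists, the identifier with the highest mean stood for a symbol. Named genes were the 10 smallest p in each direction and the 5 largest and 5 lowest differences (symbol, mean of at least 20, p under 0.05), the 3 smallest p of each described list and a fixed panel. Others were chosen after their values were seen. The members, lists and rule were chosen with earlier results of these data known. The limma p-values reflect the spread between rats, taken as 1 spread per gene shared by the 4 groups. Among genes with a mean of at least 20, the SD of the log2 values was larger in AV than in AA for 63.2%. Promoter sequences were read from RefSeq (GRCr8), a different build from the reads, with Python 3.11.15. The fit was tested on simulated data. The values of 1 named gene are not reported here.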

Additional observations from a re-analysis of the deposited data

Results flagged for a closer look

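The AA minus AV difference itself differed between rat numbers above 4011 and up to 4011 in 2 named genes. The test was limma on the product of treatment and number range, at an unadjusted p of 0.05. Both were among the 26 named genes that were no DEG, and none of the 47 lower and 19 higher named genes did so. That is no larger share than the 3.65% of all genes. For C4a the difference between the ranges was 1.12 (p = 0.045), with -1.03 in the lower and 0.09 in the higher range. For RT1-Bb, a class II chain, it was 2.49 (p = 0.046), with -2.16 and 0.33. Neither passed after adjustment (adjusted p = 0.997 for both).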

How the results depend on the processing

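No alternative fitted across all genes gave a gene with an adjusted p below 0.05. The numbers of DEGs stayed within 1.5 times of 703 under both pseudocounts, both filters, all scalings, robust fitting, array weights and either covariate. The genes themselves changed more under some of these. Of the 703 DEGs, 695 were still called under robust fitting and 419 under array weights. With the library total as a covariate 486 were, and after scaling to the same total 527. Scaling to the same total gave 348 higher and 314 lower genes. A fit of AA and AV alone gave 480 DEGs (129 higher, 351 lower), with a smallest adjusted p of 0.967 by limma. In a permutation test of the AA and AV rats, 39 of the 47 named lower and 12 of the 19 named higher genes had an unadjusted p under 0.05. After adjustment over the named genes, 22 and 9 did. These genes were chosen for their p in the same rats, so the counts were largely set beforehand. The permutation p was larger than the limma p for Prf1 (0.0024 against 0.000119), Vwf (0.046 against 0.00741) and Cav1 (0.08 against 0.0216). For Mall (0.00013 against 0.000644) and Mul1 (5e-04 against 0.0072) it was smaller. Rats up to 4011 alone gave 329 (140 higher, 189 lower). Alternatives chosen after seeing the data gave 378 DEGs (183 lower) without AV rats 3989, 3999, 4009 and 4568, and 265 (129 higher, 136 lower) when AA rat 3988 was left out as well. Without AV rats 4566 to 4572 there were 1541 (683 higher, 858 lower). Leaving out each rat in turn gave 458 to 1055 DEGs, 149 to 460 higher and 301 to 627 lower. It gave 471 (without rat 4107) to 963 for AA against ADQ, which array weights moved to 1584, and 348 (without rat 3985) to 858 (without rat 3996) for the product of treatment and number range. The cause was not tested in any of these.

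Among genes that were no DEG, signs turned under array weights (Bnip3 0.006, Bnip3l 0.033), above 4011 (C4a 0.088, RT1-Bb 0.334, Bnip3 0.009, Bcl2a1 0.032, Bcl2l1 -0.031), without the 4 AV rats (Acvrl1 0.017, Bcl2a1 0.072) and without rat 3988 as well (Acvrl1 0.032, Cldn5 0.004, C4a 0.021, RT1-Bb 0.023, Bcl2a1 0.11, Bcl2l10 -0.024). Leaving out 1 rat moved Bcl2l2 between -0.002 and 0.028. No paired analysis was possible because the groups share no replicate numbers.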
